A study of Mus musculus with 12 samples.

Results

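The 39 genes described here mark the proximal tubule, the part of the nephron that follows the glomerulus. They were chosen by name with earlier results of these data known, so counts of passing genes below describe this list. All were found by their symbols in the gene table of the series, where they are 39 of 14096 listed genes. The series measured mRNA in glomerular preparations from 12 male eNOS-/- mice on the C57BL/6J background, 3 in each of 4 groups. All mice lacked endothelial nitric oxide synthase, so no group is wild type, and Nos3 was nevertheless listed between 10.07 and 11.40 on the log2 scale in every library, without a separate value for its deleted part. Streptozotocin (STZ, a toxin of pancreatic beta cells) was injected for 5 days running, 50 mg/kg a day, into mice 8 weeks old to make them diabetic, and citrate buffer was injected into the others. Treatment began 10 weeks later and lasted 8 weeks, as a daily gavage of arctigenin (ATG, a lignan of burdock fruit) at 40 mg/kg or of its vehicle, 5% DMSO. The groups are thus nondiabetic with vehicle, nondiabetic with ATG, diabetic with vehicle and diabetic with ATG, and values below are given for replicates 1, 2 and 3 of each group, in that order of mice.

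The proximal tubule reclaims most of what the glomerulus filters. Its brush border takes up glucose, amino acids, phosphate and filtered protein, its basolateral side draws organic anions from blood for secretion, and its cells make glucose from lactate and amino acids. HNF4A is a transcription factor of this cell type. The 39 genes are known above all from this cell type, though not all are restricted to it: Aqp1 is also known from descending thin limbs and endothelia, and megalin and cubilin have been described in podocytes. In a glomerular library such genes serve as a gauge of tubule RNA.

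The libraries held 23637632 to 29768473 reads on listed genes, and no member fell below 87 reads in any mouse. Defining markers of endothelium and mesangium were present in every library: on the log2 scale Pecam1 of endothelium lay between 12.94 and 14.56, and Itga8 of mesangium between 11.62 and 13.27. The labels also describe a digestion into single cells and a fluorescence sort, while their RNA protocol and the study's methods name glomeruli as the source of RNA. The leading number in each sample title takes its values within a single group, so whatever it stands for cannot be told apart from the group. Nothing beyond the titles separates the mice as samples, and p-values measure the spread between these 12 libraries.

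Some promoters of the members hold short motifs that the choice of members did not use. RefSeq entries (GRCm38.p6) covered 48 start sites of 34 of the 39 genes, and the 250 bases before each start were searched on both strands for motifs picked with the members known, of which 2 are given. A core of the HNF4 motif, CAAAGNNCA, stood in 9 of the 48 windows (18.8%), against 5.49% of 32851 windows over all genes and 4.66% of the 14188 windows of genes listed in the series. The TATA box letters TATAAA stood in 7 windows (14.6%), against 12.4% and 7.05%. The motifs do not overlap each other in the windows shown. The genes with the HNF4 core were Aqp1, Cubn, G6pc, Khk, Lrp2, Slc13a3, Slc3a1, Slc7a7 and Slc7a8. The 3 windows below were chosen to show each motif, from genes whose values are given further on. Each runs 5′ to 3′ on the strand of the gene and ends at the base before its RefSeq start, and capitals mark the matched motifs. The RefSeq start of Lrp2 lies inside the gene as the deposited table places it, so the end of that window overlaps the listed gene.
G6pc promoter, chr11:101367466-101367715, plus strand: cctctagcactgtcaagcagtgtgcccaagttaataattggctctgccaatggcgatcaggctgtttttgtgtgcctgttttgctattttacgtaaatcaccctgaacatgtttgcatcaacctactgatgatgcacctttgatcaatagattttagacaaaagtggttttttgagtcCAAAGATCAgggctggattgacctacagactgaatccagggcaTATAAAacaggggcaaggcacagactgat
Lrp2 promoter, chr2:69586030-69586279, minus strand: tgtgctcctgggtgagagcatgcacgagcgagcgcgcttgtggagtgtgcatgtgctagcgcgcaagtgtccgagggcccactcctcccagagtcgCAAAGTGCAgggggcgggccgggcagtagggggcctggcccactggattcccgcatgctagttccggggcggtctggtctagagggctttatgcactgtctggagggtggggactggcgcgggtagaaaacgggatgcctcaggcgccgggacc
Kap promoter, chr6:133853668-133853917, minus strand: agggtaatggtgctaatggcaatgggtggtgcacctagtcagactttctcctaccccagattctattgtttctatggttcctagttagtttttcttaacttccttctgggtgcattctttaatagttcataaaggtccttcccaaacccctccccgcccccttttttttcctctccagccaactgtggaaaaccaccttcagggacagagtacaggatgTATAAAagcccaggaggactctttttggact
G6pc carries both motifs, the HNF4 core at 72 and the TATA box at 29 bases before the start. Lrp2 holds the HNF4 core alone, and Kap the TATA box alone. Distances are to the motif's outermost base on the far side from the start. A match describes letters in this window and does not show that a factor was bound.

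The members are spread over 15 chromosomes, with 10 on chromosome 2, 6 on chromosome 13 and 4 on chromosome 19. In mm10, the build of the deposited coordinates, the organic anion transporter genes Slc22a8 (chr19:8591254-8611835) and Slc22a6 (chr19:8617996-8628299) lie next to each other on the plus strand, as do Slc17a3 (chr13:23839434-23860714) and Slc17a1 (chr13:23869018-23895730).

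To learn how much of each library these genes took, the values of the members were summed on the linear scale. In vehicle-treated nondiabetic mice they took 0.931%, 0.617% and 1.08% of the listed total, a mean of 0.877% ± 0.237 (SD, n = 3). ATG-treated nondiabetic mice gave 2.09%, 1.42% and 1.26%, a mean of 1.59% ± 0.439 (SD, n = 3). Vehicle-treated diabetic mice gave 0.274%, 0.362% and 0.144%, a mean of 0.260% ± 0.110 (SD, n = 3), and ATG-treated diabetic mice 0.342%, 0.455% and 0.224%, a mean of 0.340% ± 0.115 (SD, n = 3). All 6 diabetic libraries lay below all 6 nondiabetic ones, and ATG-treated nondiabetic mice lay above the vehicle-treated ones. The 2 diabetic groups overlapped. Counting error is small beside this spread, since no Wilson 95% interval was wider than 0.0055 percentage points to either side. Fewer proximal tubule cells in a preparation and less of these RNAs per cell cannot be told apart in bulk libraries.

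**Figure D1:**
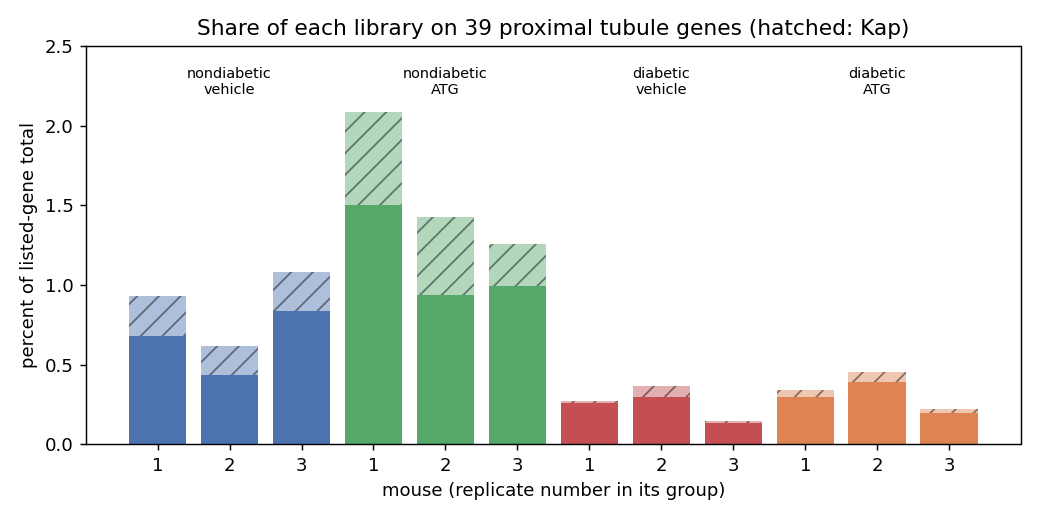
Share of each library on the 39 proximal tubule genes, in percent of the linear total over 14096 listed genes, for each of 12 mice, with the part of Kap hatched. Nondiabetic mice range from 0.617% to 2.09% and diabetic mice from 0.144% to 0.455%.

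Between genes, levels are given as reads per kilobase of the listed gene length per 1000000 reads on listed genes. Kap, the kidney androgen-regulated protein, was by far the most abundant member, at 3711 ± 617 (SD, n = 3) in vehicle-treated nondiabetic mice, where it ranked 2 among all listed genes. It fell to rank 89 at 540 ± 502 (SD, n = 3) in vehicle-treated diabetic mice, where single mice ranged from 217 to 1118. Next in nondiabetic vehicle mice on this scale came Ass1 (argininosuccinate synthase, of arginine synthesis) at 324 ± 121, Miox (inositol breakdown) at 320 ± 104 and Slc34a1 (the sodium-phosphate cotransporter) at 318 ± 117. These 3 do not differ beyond their spread. At the low end stood Cubn at 6.05 ± 1.48 and Dpys (dihydropyrimidinase, of pyrimidine breakdown) at 2.80 ± 0.714. Ranks among the 39 shifted with diabetes for a few: in vehicle-treated diabetic mice Aqp1 moved from rank 18 to 10, while Keg1 moved from 8 to 16 and Slc5a12 from 22 to 32.

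The comparison of diabetic with nondiabetic vehicle-treated mice asked how these genes stand in established diabetes. All 39 had lower group means in diabetic mice, and 30 passed the test as lower (limma across all genes, Benjamini-Hochberg adjusted p under 0.05), against 8.63% of all listed genes called lower. None passed as higher. The median log2 fold change of the members was -1.49, a 2.82-fold lower level, beside 0.0075 over all genes. In 31 of 39 members the 3 diabetic values all lay below the 3 nondiabetic values, as in 18.7% of all genes. The 9 that did not pass were Amn, Slc13a1, Slc13a3, Aqp1, Slc3a1, Ggt1, Fbp1, Slc37a4 and Dpys, with adjusted p-values from 0.0579 for Slc37a4 to 0.781 for Dpys. The count moved with the mice of the vehicle-treated nondiabetic group: 12 members passed without replicate 1, 31 without replicate 2 and 13 without replicate 3. Calls over all genes in either direction went from 2659 to 801, 1587 and 1262 in these fits, and all 39 members stayed negative without replicate 1.

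**Figure D2:**
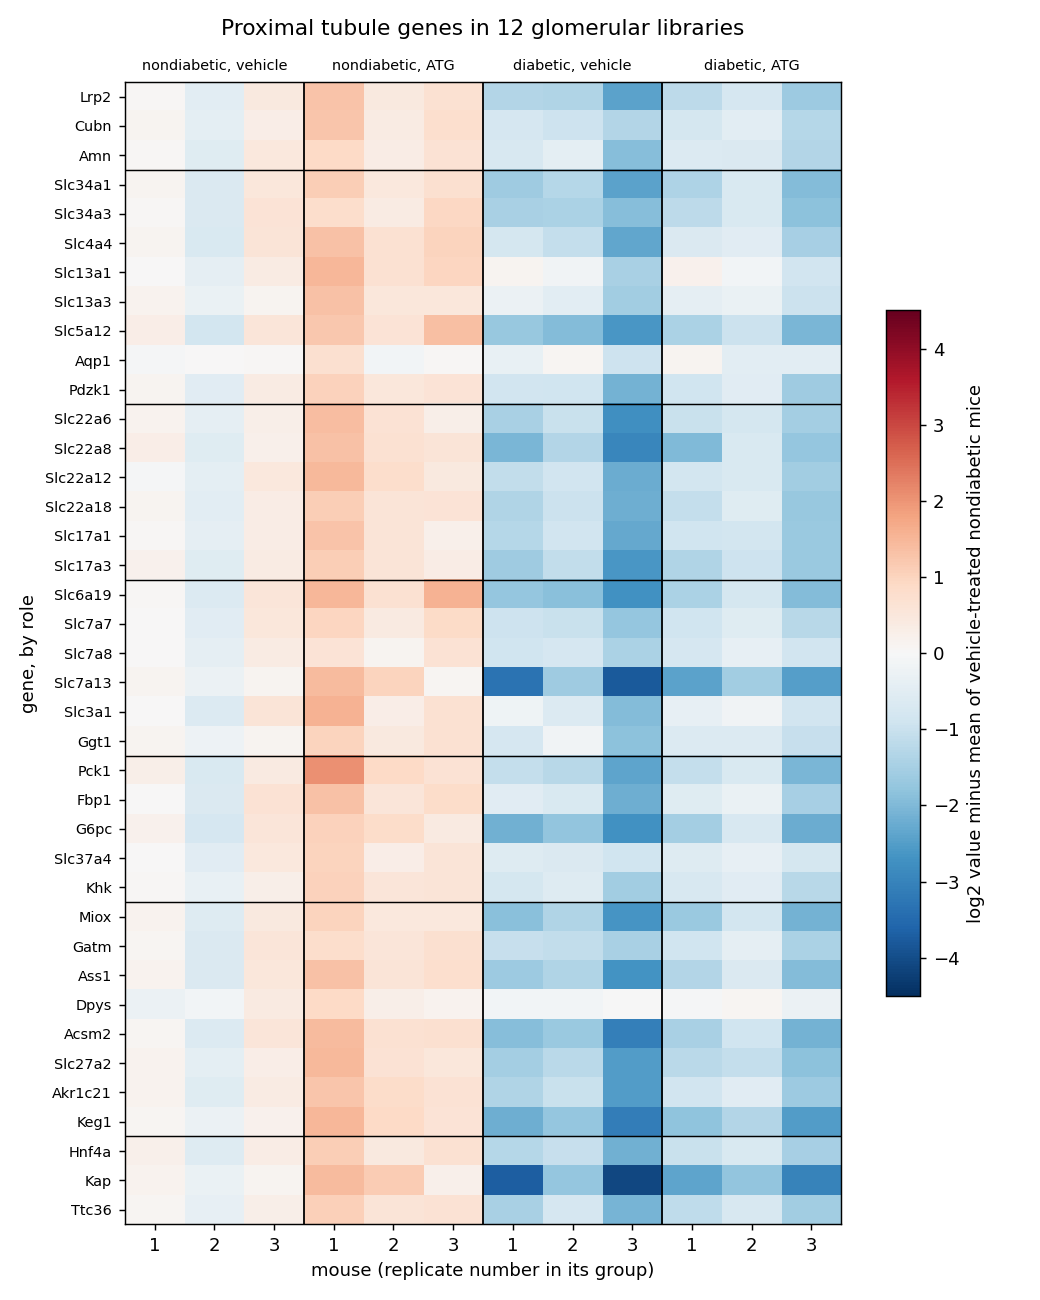
Log2 value of each of the 39 genes (rows, by role) in each of 12 mice (columns), minus the mean of the vehicle-treated nondiabetic mice. Almost all diabetic cells are blue, Kap and Slc7a13 deepest, while Dpys and Aqp1 stay near white, and replicate 3 of the vehicle-treated diabetic mice is the lowest library in 38 of 39 rows.

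Lrp2 and Cubn encode megalin and cubilin, the receptors that take filtered protein out of the tubule lumen, and Amn encodes amnionless, which brings cubilin to the surface. Lrp2 (chr2:69424335-69586067, minus strand) read 12.74, 12.21 and 13.14 on the log2 scale in vehicle-treated nondiabetic mice and 11.37, 11.33 and 10.30 in vehicle-treated diabetic mice. It read 13.99, 13.15 and 13.37 in ATG-treated nondiabetic and 11.52, 11.96 and 11.07 in ATG-treated diabetic mice. Both diabetic groups lay below both nondiabetic groups, and Lrp2 fell by 1.70 (SE 0.346, adjusted p = 0.0107, limma) with vehicle, a 3.24-fold lower level. Cubn (chr2:13276338-13491876, minus strand) read 11.10, 10.54 and 11.27 in vehicle-treated nondiabetic, 12.21, 11.34 and 11.72 in ATG-treated nondiabetic, 10.22, 10.03 and 9.66 in vehicle-treated diabetic and 10.17, 10.51 and 9.69 in ATG-treated diabetic mice. Its lowest nondiabetic value was above the highest diabetic value by a narrow margin, and it fell by 1.00 (SE 0.271, adjusted p = 0.0283). Amn had a log2 fold change of -1.01 (SE 0.369, adjusted p = 0.0759) and did not pass.

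Of the 8 genes of ion, water and carboxylate transport, 5 passed as lower. Slc34a1 (chr13:55399648-55414695) encodes the main brush border phosphate transporter. It read 14.90, 14.13 and 15.27 in vehicle-treated nondiabetic, 15.88, 15.26 and 15.49 in ATG-treated nondiabetic, 13.18, 13.50 and 12.35 in vehicle-treated diabetic and 13.39, 14.08 and 12.83 in ATG-treated diabetic mice. No diabetic value reached a nondiabetic value of the same treatment, and with vehicle it fell by 1.76 (SE 0.384, adjusted p = 0.0133). Slc5a12, a sodium-coupled lactate transporter, read 12.24, 11.14 and 12.48 in vehicle-treated nondiabetic, 13.15, 12.58 and 13.30 in ATG-treated nondiabetic, 10.25, 10.01 and 9.33 in vehicle-treated diabetic and 10.55, 10.97 and 9.88 in ATG-treated diabetic mice. It had the lowest p of the 8, and it fell by 2.09 (SE 0.383, adjusted p = 0.00711). Slc34a3, a second phosphate transporter, fell by 1.60 (SE 0.334), the bicarbonate transporter Slc4a4 by 1.39 (SE 0.425) and the scaffold Pdzk1 by 1.30 (SE 0.369). The sulfate transporter Slc13a1 had a log2 fold change of -0.50 (SE 0.402, adjusted p = 0.402), and the dicarboxylate transporter Slc13a3 one of -0.77 (SE 0.331, adjusted p = 0.122). Aqp1, the water channel, read 12.07, 12.16 and 12.19 in vehicle-treated nondiabetic and 11.82, 12.24 and 11.20 in vehicle-treated diabetic mice, which overlap, and its difference of -0.39 (SE 0.272, adjusted p = 0.333) did not pass. Aqp1 and Dpys were chosen for values by mouse after those values had been seen.

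All 6 genes grouped under organic anion and urate transport passed as lower, with log2 fold changes from -1.40 (Slc22a12, the urate transporter URAT1) to -2.11 (Slc22a8, which encodes OAT3). Slc22a8 read 11.77, 10.92 and 11.68 in vehicle-treated nondiabetic, 12.78, 12.16 and 12.02 in ATG-treated nondiabetic, 9.40, 10.14 and 8.50 in vehicle-treated diabetic and 9.48, 10.76 and 9.71 in ATG-treated diabetic mice. Diabetic values stayed below all nondiabetic ones, and the SE of its fall was 0.431 (adjusted p = 0.0107). Its neighbour Slc22a6, which encodes OAT1, fell by 1.73 (SE 0.421), and the other neighbouring pair, Slc17a1 and Slc17a3, fell by 1.49 (SE 0.383) and 1.78 (SE 0.373). Slc22a18, which the deposited annotation names an organic cation transporter although it is counted in this group, fell by 1.50 (SE 0.348). The highest adjusted p of the 6 was 0.0316.

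Of the 6 genes of amino acid transport and glutathione breakdown, 4 passed as lower. Slc6a19 encodes the neutral amino acid transporter of the brush border. It read 10.73, 10.04 and 11.23 in vehicle-treated nondiabetic, 12.15, 11.36 and 12.22 in ATG-treated nondiabetic, 8.93, 8.78 and 7.94 in vehicle-treated diabetic and 9.24, 9.86 and 8.71 in ATG-treated diabetic mice. Its 4 groups stood in the same order as the shares of reads, with overlap between the diabetic groups alone, and it fell by 2.12 (SE 0.386, adjusted p = 0.00704) with vehicle. Slc7a13, a transporter of acidic amino acids and cystine, read 10.37, 9.97 and 10.37 in vehicle-treated nondiabetic, 11.65, 11.23 and 10.33 in ATG-treated nondiabetic, 6.92, 8.62 and 6.44 in vehicle-treated diabetic and 7.84, 8.67 and 7.75 in ATG-treated diabetic mice. It spread widely among vehicle-treated diabetic mice (SD 1.15) and fell by 2.91 (SE 0.505, adjusted p = 0.00617), a 7.51-fold lower level. Without replicate 2 of the vehicle-treated diabetic mice the log2 fold change of Slc7a13 was -3.56. The basolateral transporters Slc7a7 and Slc7a8 fell by 1.22 (SE 0.292) and 1.03 (SE 0.226). Slc3a1, a subunit of the cystine transporter, had a log2 fold change of -0.92 (SE 0.460, adjusted p = 0.178), and Ggt1, which starts glutathione breakdown at the brush border, one of -0.92 (SE 0.336, adjusted p = 0.0759).

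Among 5 genes of glucose and fructose metabolism, 3 passed as lower. G6pc, the catalytic subunit of glucose-6-phosphatase that ends gluconeogenesis, read 11.95, 10.99 and 12.28 in vehicle-treated nondiabetic, 12.79, 12.55 and 12.14 in ATG-treated nondiabetic, 9.58, 9.98 and 9.00 in vehicle-treated diabetic and 10.20, 11.01 and 9.51 in ATG-treated diabetic mice. The highest ATG-treated diabetic mouse just exceeded the lowest vehicle-treated nondiabetic mouse, and G6pc fell by 2.22 (SE 0.410, adjusted p = 0.00743) with vehicle. Pck1, which commits oxaloacetate to glucose, read 13.57, 12.61 and 13.69 in vehicle-treated nondiabetic, 15.34, 14.19 and 13.95 in ATG-treated nondiabetic, 12.23, 12.05 and 10.92 in vehicle-treated diabetic and 12.20, 12.60 and 11.22 in ATG-treated diabetic mice. It fell by 1.55 (SE 0.485, adjusted p = 0.0469), close to the threshold. Khk, the fructose kinase, fell by 0.98 (SE 0.273). Fbp1, the phosphatase between Pck1 and G6pc in the pathway, had a log2 fold change of -1.13 (SE 0.472, adjusted p = 0.114), and Slc37a4, which carries glucose 6-phosphate to G6pc, one of -0.71 (SE 0.235, adjusted p = 0.0579).

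Of 8 other metabolic enzymes and carriers, 7 passed as lower. Keg1, listed as kidney expressed gene 1, had the lowest p of all 39. It read 12.64, 12.30 and 12.74 in vehicle-treated nondiabetic, 14.06, 13.46 and 13.18 in ATG-treated nondiabetic, 10.36, 10.80 and 9.45 in vehicle-treated diabetic and 10.76, 11.26 and 10.04 in ATG-treated diabetic mice. The gap between the diabetic and nondiabetic values of each treatment exceeded 1 log2 unit, and with vehicle Keg1 fell by 2.35 (SE 0.369, adjusted p = 0.00437). Acsm2, an acyl-CoA synthetase, fell by 2.22 (SE 0.419), Miox by 1.95 (SE 0.390), Ass1 by 1.89 (SE 0.419) and the fatty acid transporter Slc27a2 by 1.75 (SE 0.358). Akr1c21, an aldo-keto reductase of steroids, fell by 1.62 (SE 0.396), and Gatm, of creatine synthesis, by 1.20 (SE 0.289). Dpys was the exception: it read 7.16, 7.32 and 7.83 in vehicle-treated nondiabetic and 7.32, 7.30 and 7.40 in vehicle-treated diabetic mice. These values overlap throughout, the difference was -0.095 (95% interval -0.56 to 0.36), and its sign turned to 0.10 without replicate 3 of the vehicle-treated nondiabetic mice.

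The transcription factor and the last 2 genes all passed as lower. Hnf4a read 12.05, 11.22 and 12.16 in vehicle-treated nondiabetic, 12.90, 12.26 and 12.49 in ATG-treated nondiabetic, 10.53, 10.76 and 9.66 in vehicle-treated diabetic and 10.81, 11.11 and 10.30 in ATG-treated diabetic mice. It fell by 1.49 (SE 0.330, adjusted p = 0.0137), the median of the 39. Kap read 16.18, 15.73 and 16.17 in vehicle-treated nondiabetic, 17.44, 17.17 and 16.27 in ATG-treated nondiabetic, 12.33, 14.31 and 11.94 in vehicle-treated diabetic and 13.66, 14.24 and 13.01 in ATG-treated diabetic mice. Replicate 2 of the vehicle-treated diabetic mice lay about 2 log2 units above the other diabetic vehicle mice, and Kap still had the most negative value of all members: it fell by 3.17 (SE 0.549, adjusted p = 0.00602), a 9.01-fold lower level. Without replicate 2 of the vehicle-treated diabetic mice the log2 fold change of Kap was -3.90. Ttc36 fell by 1.44 (SE 0.316, adjusted p = 0.0135).

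**Figure D3:**
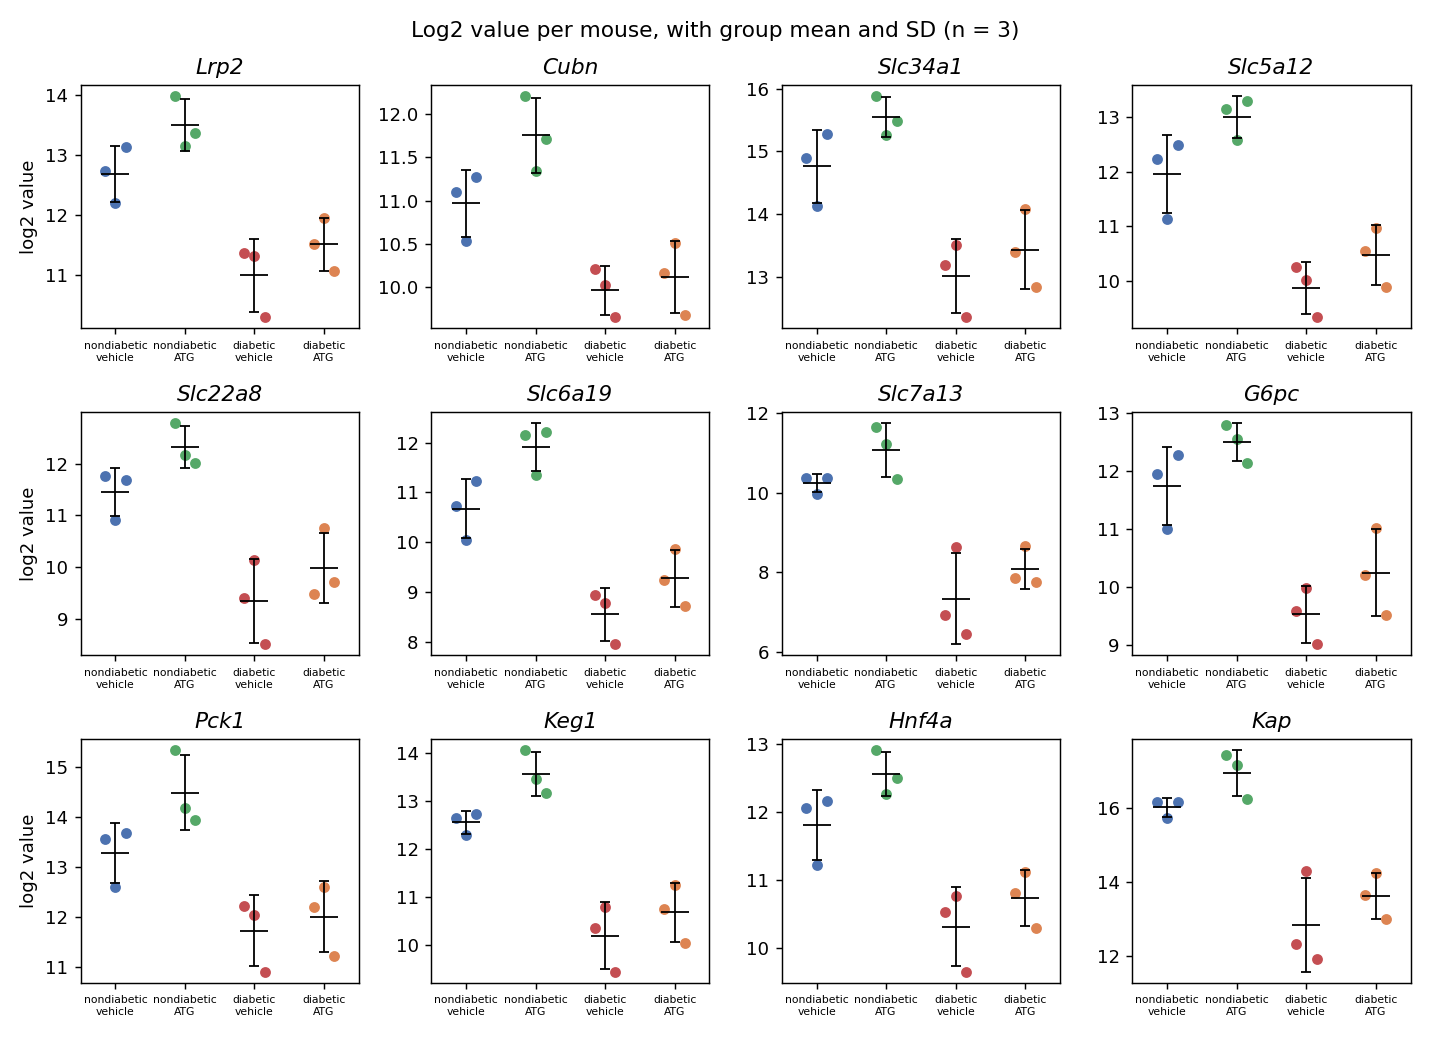
Log2 value per mouse for 12 of the genes, with group mean and SD (n = 3). In each panel both diabetic means lie below both nondiabetic means, and the values of the diabetic groups with vehicle and with ATG overlap.

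Diabetes was compared a second time, among ATG-treated mice, which share no animal with the comparison above. Of the 39 members, 37 passed as lower, against 20.8% of all genes called lower, and in 38 the groups did not overlap, as in 25.6% of all genes. The median log2 fold change was -1.89, a 3.70-fold lower level, beside 0.053 over all genes. Kap fell by 3.32 (SE 0.549, adjusted p = 0.0011), Slc7a13 fell by 2.98 (SE 0.505), Keg1 fell by 2.88 (SE 0.369, adjusted p = 0.000339, the lowest) and Slc6a19 fell by 2.64 (SE 0.386). Aqp1 had a log2 fold change of -0.50 (SE 0.272, adjusted p = 0.155) and Dpys one of -0.52 (SE 0.209, adjusted p = 0.0632), and these did not pass. Across the 39 members the log2 fold changes of both diabetes comparisons had Pearson r = 0.955 and Spearman rho = 0.952. That is a description across genes measured in the same libraries, and genes are not independent replicates. All 39 were more negative among ATG-treated mice.

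**Figure D4:**
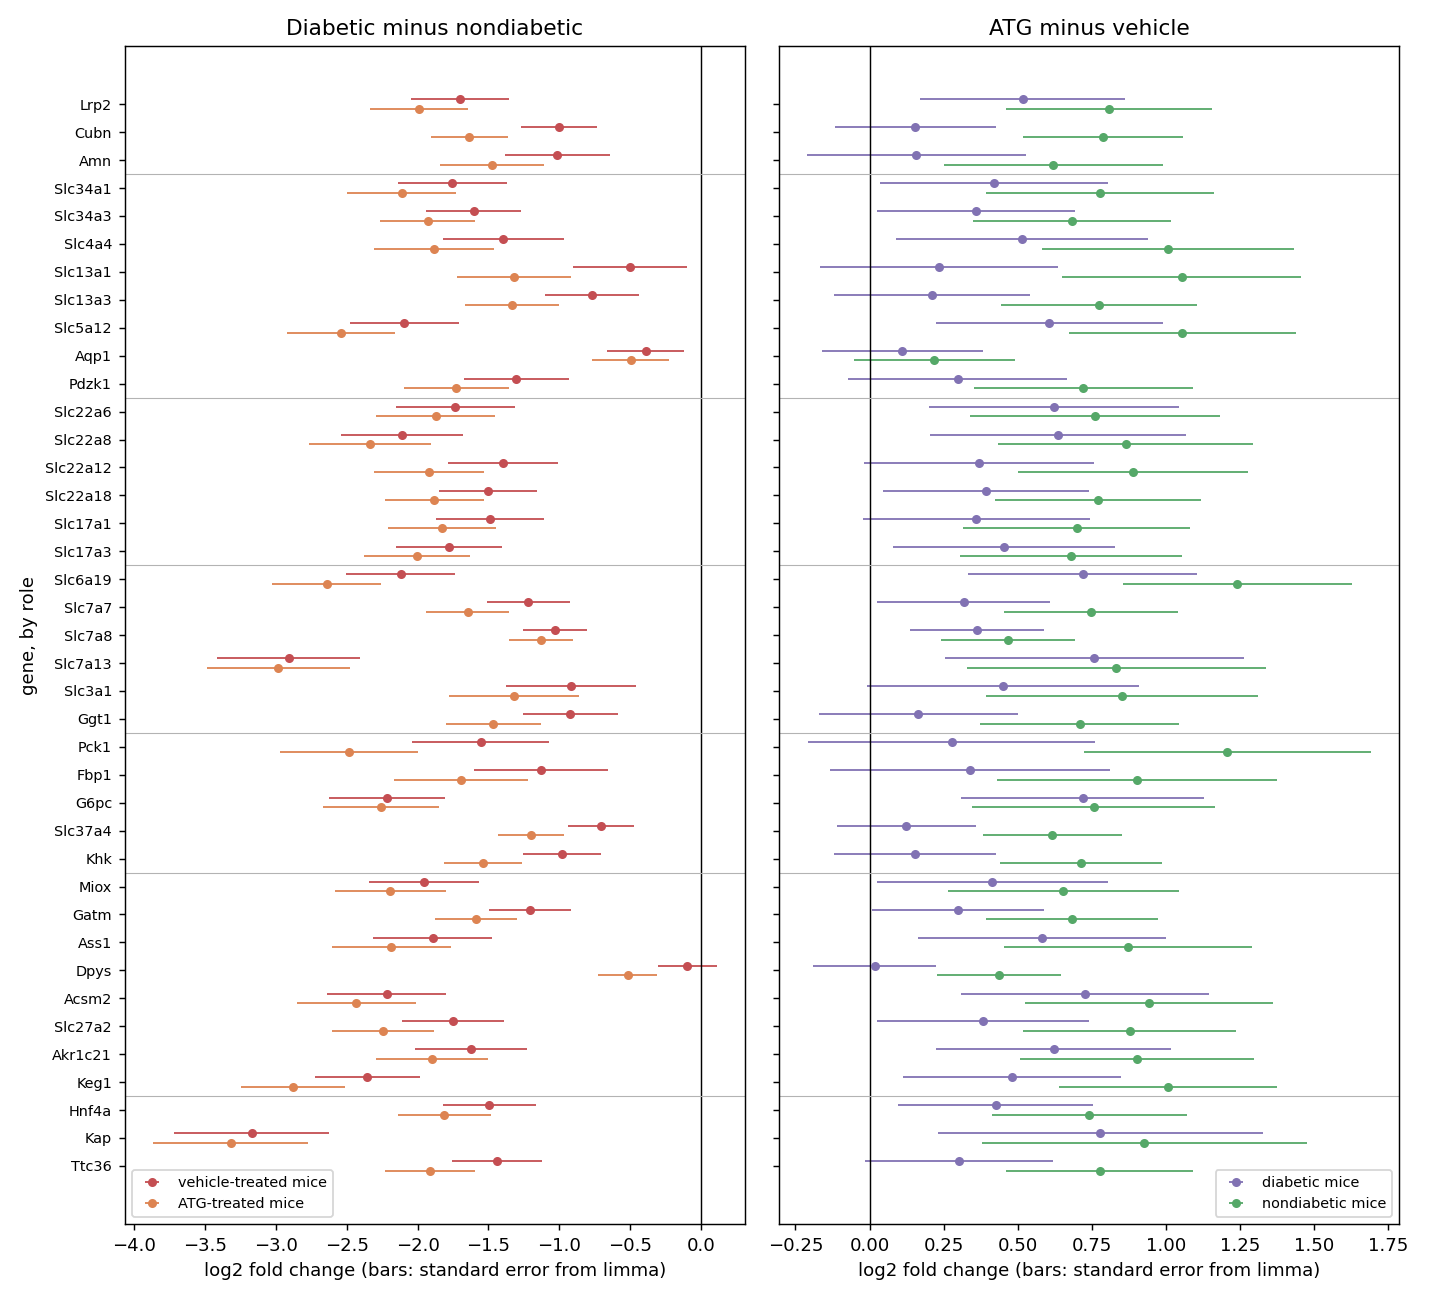
Log2 fold change with its limma standard error for each gene, diabetic minus nondiabetic (left) and ATG minus vehicle (right). On the left the members run from -3.32 to -0.095, with Kap and Slc7a13 at the far end. Aqp1 and Dpys lie nearest to 0, at -0.39 and -0.095 with vehicle and -0.50 and -0.52 with ATG. On the right all estimates are above 0 and below 1.25.

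ATG was then compared with vehicle within each disease state. In diabetic mice no member passed and none had an unadjusted p under 0.05 with limma, and none passed with limma-voom on recovered reads. Over all genes 0% passed here, and 4.51% had an unadjusted p under 0.05. Estimates were above 0 for all 39, with a median of 0.38 beside -0.0051 over all genes. They ran from 0.017 (Dpys) to 0.78 (Kap, SE 0.549, 95% interval -0.43 to 1.99). The lowest p was that of Slc6a19 (0.72, 95% interval -0.13 to 1.57, unadjusted p = 0.0893). In no member did the ATG-treated diabetic values all lie above the vehicle-treated ones, whereas 3.85% of all genes showed that. The median without replicate 3 of the vehicle-treated diabetic mice, the library lowest in 38 members, was 0.050, with 25 members above 0 and 14 below, and without replicate 2 of the ATG-treated diabetic mice it was 0.21, with 35 above and 4 below. It was 0.65 without replicate 2 of the vehicle-treated or without replicate 3 of the ATG-treated diabetic mice. With the other proximal tubule genes described further on as a covariate the median was 0.079, with 27 above and 12 below.

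In nondiabetic mice no member passed with limma or with limma-voom, while 0.709% of all genes passed as higher with limma. Unadjusted p-values under 0.05 were found for 20 of 39, all higher, against 30.2% of all genes in either direction and 10.7% as higher. All 39 estimates were above 0, with a median of 0.78 beside -0.039 over all genes. With the other proximal tubule genes as a covariate the median was -0.0021, with 19 above and 20 below 0. In 23 members the ATG-treated values all lay above the vehicle-treated ones, against 14.4% of all genes. Slc6a19 had the lowest p (1.24, SE 0.386, adjusted p = 0.0764), followed by Cubn (0.79, SE 0.271, adjusted p = 0.0971), and Pck1 had an estimate of 1.21 (SE 0.485, adjusted p = 0.132). Replicate 1 of the ATG-treated nondiabetic mice was the highest of 12 libraries for 35 members and replicate 3 for the other 4. Passing members numbered 3 without replicate 2 of this group and 2 without replicate 3 of the vehicle-treated diabetic mice. Calls over all genes in either direction rose as well, from 736 with all mice to 3531 and 1420 in these fits.

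The test of the difference between the ATG effects, diabetic minus nondiabetic, passed for no member with limma or limma-voom, with 0 unadjusted p-values under 0.05, and for 0.546% of all genes, while 12.9% of all genes had an unadjusted p under 0.05. All 39 estimates were below 0, with a median of -0.40, but the size and the sign count changed with single mice. The median was -0.15 without replicate 2 of the vehicle-treated nondiabetic mice (9 above 0), -0.21 without replicate 1 of the ATG-treated nondiabetic mice (7 above 0), -0.17 without replicate 2 of the vehicle-treated diabetic mice (11 above 0), -0.13 without replicate 3 of the ATG-treated diabetic mice (8 above 0), and -0.72 without replicate 3 of the vehicle-treated diabetic mice (0 above 0). With the other proximal tubule genes as a covariate it was 0.095 (26 above 0), and with podocyte genes -0.033 (17 above 0). Cubn had the lowest p (-0.63, SE 0.383, unadjusted p = 0.126).

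A separate list of 69 other proximal tubule genes, 66 of them listed, was followed beside the members. This list too was chosen with earlier results of these data known. With vehicle, 38 of 66 passed as lower in diabetes, against 8.63% of all genes, and none as higher, with a median log2 fold change of -1.04. Its leading genes by p were Slco1a1 (an organic anion transporter, log2 fold change -2.91, SE 0.399, adjusted p = 0.00269), Fut9 (a fucosyltransferase, -2.23, SE 0.345) and Dpep1 (a brush border dipeptidase, -1.66, SE 0.262). Slc5a2, the glucose transporter SGLT2, fell by 1.45 (SE 0.405, adjusted p = 0.0321), and Slc2a2, the basolateral glucose transporter GLUT2, had a log2 fold change of -1.03 (SE 0.378, adjusted p = 0.0765). Among ATG-treated mice 60 of the 66 passed as lower, against 20.8% of all genes, with a median of -1.53. No gene of this list passed for ATG against vehicle in either disease state with limma, where 1 had an unadjusted p under 0.05 in diabetic (4.51% over all genes) and 27 in nondiabetic mice (30.2%), with medians of 0.29 and 0.72.

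The mean log2 value of these 66 genes per mouse served as a gauge of proximal tubule RNA. It was 10.02 ± 0.357 (SD, n = 3) in vehicle-treated nondiabetic, 10.68 ± 0.335 in ATG-treated nondiabetic, 8.91 ± 0.510 in vehicle-treated diabetic and 9.17 ± 0.347 in ATG-treated diabetic mice. Over the 12 mice, members correlated with it at r from 0.72 (Dpys) to 0.997 (Khk), 37 of them above 0.9. The points share libraries and group structure, so no p is given. Slopes differed far more than correlations. Kap changed by 2.21 log2 units per unit of the gauge, Slc7a13 by 2.01, Keg1 by 1.82, Slc6a19 by 1.73 and Acsm2 by 1.71. At the other end Dpys changed by 0.29, Aqp1 by 0.40, Slc37a4 by 0.74 and Slc7a8 by 0.80. In all, 29 slopes were above 1 and 10 below, with a median of 1.27. These counts depend on the gauge: with the mean of the other 38 members in its place, 20 slopes were above 1 and the median was 1.00. Kap then had a slope of 1.78 and Dpys of 0.22.

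**Figure D5:**
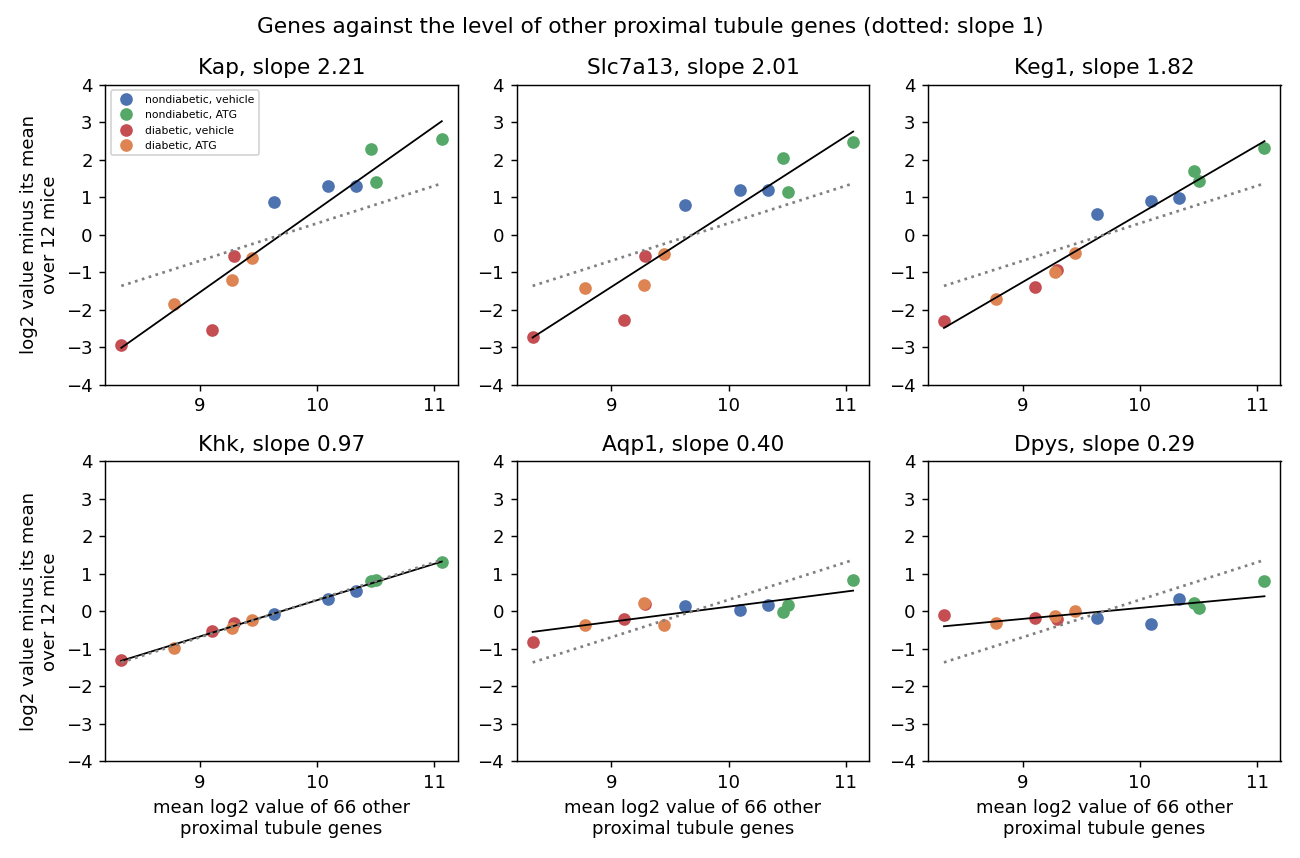
Log2 value of 6 of the genes, centred on its mean over 12 mice, against the mean log2 value of 66 other proximal tubule genes in the same mouse, with the fitted line (solid) and a line of slope 1 (dotted). Kap and Slc7a13 rise about 2 units per unit, Khk follows the dotted line, and Aqp1 and Dpys lie flatter.

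With this gauge as a covariate in the fit, no member passed for diabetes with vehicle (limma; 13 had an unadjusted p under 0.05, against 21.1% of all genes), while 0.411% of all genes passed. The median log2 fold change of the members became -0.15, with 25 below and 14 above 0. Keg1 had the lowest adjusted p (-0.96, adjusted p = 0.0612), followed by Acsm2 (-0.56, adjusted p = 0.0717). Kap stood at -1.54 (adjusted p = 0.184) and Slc7a13 at -1.42 (adjusted p = 0.189), while Slc13a1 stood at 0.98 (adjusted p = 0.0912), Slc3a1 at 0.81 (adjusted p = 0.136) and Fbp1 at 0.71 (adjusted p = 0.112). The gauge itself differs between the groups. Among ATG-treated mice no member passed with the covariate either, with 3 unadjusted p-values under 0.05, against 0.936% of all genes passing and 19% with an unadjusted p under 0.05.

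Lists of other cell types moved with the groups as well. Of 30 genes of the loop of Henle, distal tubule and collecting duct, 12 passed as lower in diabetes with vehicle and 24 with ATG. Over all genes 8.63% and 20.8% passed as lower there. The medians of the 30 were -0.87 and -1.25. Their share of reads was 1.82% to 1.84% in vehicle-treated nondiabetic mice and 0.436% to 1.24% in vehicle-treated diabetic mice. This share was 1.83% to 3.84% in ATG-treated nondiabetic and 0.842% to 0.915% in ATG-treated diabetic mice. Over all genes, 10.2% passed as higher in diabetes with vehicle and 25.9% with ATG, and 4.51% passed as lower with ATG in nondiabetic mice. Of 20 endothelial genes, 10 passed as higher in diabetes with vehicle and 19 with ATG, and 10 passed as lower with ATG in nondiabetic mice. The endothelial share was 0.680% to 0.748% and 0.889% to 0.990% in vehicle-treated nondiabetic and diabetic mice, and 0.345% to 0.591% and 0.932% to 1.02% in the ATG-treated ones. Of 14 mesangial and smooth muscle genes, 10 passed as lower with ATG in nondiabetic mice (share 0.106% to 0.148%, against 0.215% to 0.272% with vehicle), and 1 rose and 1 fell in diabetes with vehicle (share 0.214% to 0.253%). Among ATG-treated mice 10 of the 14 passed as higher in diabetes (share 0.239% to 0.263%).

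Podocyte genes, 20 in the list, had a median of 0.13 in diabetes with vehicle, with none passing in limma. An unadjusted p under 0.05 was found for 1 of them, against 5011 of all 14096 genes. In diabetes with ATG 6 (30%) passed as higher, near the 25.9% of all genes. For ATG in nondiabetic mice all 20 estimates were below 0 (median -0.58), while the 39 members were above 0. None of the 20 passed in limma, and 9 had an unadjusted p under 0.05, against 30.2% of all genes. The podocyte share was 2.43% to 2.69% in vehicle-treated nondiabetic, 1.16% to 2.70% in ATG-treated nondiabetic, 2.40% to 4.07% in vehicle-treated diabetic and 2.65% to 2.98% in ATG-treated diabetic mice. Of 10 leukocyte genes, 3 passed as higher in diabetes with vehicle and 4 with ATG, against 10.2% and 25.9% of all genes. Their share was 0.0258% to 0.0365% in diabetic and 0.0150% to 0.0240% in nondiabetic mice with vehicle. With ATG it was 0.0151% to 0.0290% in diabetic and 0.0109% to 0.0139% in nondiabetic mice. All 10 leukocyte genes had estimates below 0 for ATG in diabetic mice (median -0.55), with none passing in limma. An unadjusted p under 0.05 was found for 4 of them, against 4.51% of all genes. Of 8 tubule injury genes 1 passed as higher in diabetes with vehicle, against 10.2% of all genes. Among ATG-treated mice 1 passed as higher and 1 as lower in diabetes, against 25.9% and 20.8% of all genes. With ATG in nondiabetic mice 1 passed as lower, against 4.51%. Havcr1, which encodes KIM-1 and did not pass, ranged from 6.67 to 9.43 on the log2 scale. Its log2 fold change in diabetes with vehicle was 1.52 (SE 0.487, adjusted p = 0.0512, limma). With the podocyte list as a covariate 33 members passed as lower in diabetes with vehicle, against 30 without it, and calls over all genes rose from 2659 to 4364. The same covariate took the count among ATG-treated mice from 37 to 31 and the members' median for ATG in nondiabetic mice from 0.78 to 0.41. The part of the other lists in the members' differences was not tested.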

How the data were processed

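Glomerular mRNA of 12 mice was sequenced after poly-A selection. The authors deposited log2 values for 14096 genes, with mm10 and limma named in the submitters' processing notes; aligner and counter are not given in the sources used here. Taken out of the log2 scale, 83.4% to 84.1% of values under 2000 were whole multiples (within 0.02 reads) of 1 step per library, 1.00 to 1.27, so values are not per length and reads could be recovered. Every listed gene reached at least 100 in some library on the linear scale, so weakly expressed genes are not covered. Levels per length and shares of the linear total were computed from the recovered or deposited values.

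All genes were fitted in limma 3.58.1 (R 4.3.3) with an intensity trend, over all 12 mice in 4 groups, with 5 contrasts, two-sided tests and Benjamini-Hochberg adjustment over all genes, called at adjusted p under 0.05. The steps were tested on simulated data in which 200 of 14096 genes were changed in vehicle-treated diabetic mice. Of these, 43%, 83% and 98.5% were recovered at log2 changes of 0.5, 1 and 2. False calls made up 8.5%, 4.0% and 8.4% of the calls. The members and lists were chosen with earlier results of these data known. Values per mouse are given for the gene with the lowest p of each role group and contrast and for Lrp2, Cubn, Slc34a1, Pck1, Hnf4a and Kap. Aqp1 and Dpys were added after their values were seen. Alternatives were median-ratio scaling, a minimum of 10 reads, no trend, limma-voom on recovered reads, fits of 2 groups, the title numbers as a block, covariates, other thresholds and each mouse left out. Figures were drawn with matplotlib 3.10.9.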

Additional observations from a re-analysis of the deposited data

How the results depend on the processing

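All 39 members stayed negative for diabetes with vehicle, and 26 to 30 passed, with median-ratio scaling, a minimum of 10 reads, limma-voom on recovered reads, no intensity trend or a fit of the contrasted groups alone. Counts of passing members for diabetes with vehicle ran from 12 to 31 over single mice left out, against 30. They were 12 without replicate 1 and 13 without replicate 3 of the vehicle-treated nondiabetic mice, 14 without both mice whose titles carry no number, and 8 at an adjusted p under 0.01. Calls over all genes were 801, 1262, 1836 and 578 there, against 2659. For diabetes with ATG, passing members numbered 34 to 38 over mice left out. For ATG in nondiabetic mice they numbered 0 to 3 over mice left out. There were 3 without replicate 2 of the ATG-treated nondiabetic mice, 2 without replicate 3 of the vehicle-treated diabetic mice, and 2 at an adjusted p under 0.1. Calls over all genes were 3531, 1420 and 2145 there, against 736. No member passed for ATG in diabetic mice or for the difference of the ATG effects. Medians over mice left out ran from -1.74 to -1.15 for diabetes with vehicle, -2.08 to -1.59 with ATG, 0.050 to 0.65 for ATG in diabetic mice, 0.56 to 0.98 without diabetes, and -0.72 to -0.13 for the difference. Shares of the linear total ran from 0.774% to 1.01%, 1.34% to 1.76%, 0.209% to 0.318% and 0.283% to 0.398% in nondiabetic mice with vehicle and ATG and diabetic mice with vehicle and ATG, and ATG-treated nondiabetic mice had 1.14% without Kap. The cause was not tested.

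With the mean of the 66 other proximal tubule genes as a covariate, 0 members passed for either diabetes comparison, and the medians became -0.15 and -0.067, 0.079 for ATG in diabetic mice, -0.0021 with ATG without diabetes, and 0.095 for the difference. In that fit the diabetes estimate with vehicle was above 0 for Amn (0.40), Slc4a4 (0.22), Slc13a1 (0.98), Slc13a3 (0.48), Aqp1 (0.40), Pdzk1 (0.14), Slc22a12 (0.13), Slc3a1 (0.81), Ggt1 (0.27), Pck1 (0.31), Fbp1 (0.71), Slc37a4 (0.075), Khk (0.10) and Dpys (0.31). Dpys ran from -0.23 to 0.10 over mice left out: its sign turned to 0.10 without replicate 3 of the vehicle-treated nondiabetic mice and without both unnumbered mice. With podocyte genes as a covariate the median was 0.41 with ATG without diabetes, and -0.033 for the difference. With the title numbers as a replicate block, 21 members passed for diabetes with vehicle, 36 with ATG, 4 with ATG in nondiabetic animals and 0 in the other comparisons. Calls over all genes in that fit were 1375 for diabetes with vehicle and 946 for ATG in nondiabetic mice. Same-numbered mice of the diabetic groups are different animals, so the numbers were not taken to pair them. Their deviations correlated at 0.31, 0.054 and 0.34, and those of different-numbered mice of these groups at -0.33 to 0.20. Whether the numbers mark something shared was not tested. No member had fewer than 87 reads in a mouse, and 3 mice in each group limit the precision.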
